A study of Mus musculus with 12 samples.

Results

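Genes that join osteoblasts to their neighbours were followed across sorted metaphyseal bone cells: the cadherins *Cdh2*, *Cdh11*, *Cdh13* and *Cdh15*, the connexins *Gja1*, *Gjc1* and *Gjc3*, the pannexin *Panx3*, and *Ncam1*. They were chosen by name, with earlier results of these data known. Comparisons of the members with all genes below are therefore descriptions. All 9 were found among the 32288 genes of the count table, which covers 12 libraries. Bulk RNA-seq was performed on mGFP+ cells negative for CD31, CD45 and TER119, and all 4 groups carried *Osx-CreERT2*, a Cre placed in the *Osx* (*Sp7*) locus, and *mTmG*, a reporter that tamoxifen switches from tdTomato to membrane GFP. The 4 juvenile libraries came from mice aged 3 weeks and the 4 adult libraries from mice aged 8 weeks. Each of these pooled 2 male mice, taken 2 days after 3 daily doses of tamoxifen. The 2 *c-Myc* libraries came from mice that also carried *LSL-tTA* and *Col1a1::TetO–c-Myc*, so that recombined cells express the *c-Myc* transgene. The 2 *c-Myc* + *R172H* libraries added *Trp53-LSL-R172H*, a dominant-negative p53 allele. Both induced groups were dosed with tamoxifen at 3 weeks, on 2 days in a row, and were collected 7 days later, although the dissection notes give an age of 5 weeks for them. The labels name male and female mice for the induced groups, and the bone piece taken reached about 5 mm into the shaft rather than 2 mm as in the controls. Per the authors' methods, mice with the inducible transgene, or pregnant females, also drank doxycycline or tetracycline, which was stopped before the analysis. Transgene, sex, age, antibiotic, tamoxifen schedule and trimming therefore cannot be told apart between the induced and the juvenile libraries.

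Classical cadherins are transmembrane proteins that bind the same protein on the next cell and tie it, through catenins, to the actin cytoskeleton. *Cdh2* (N-cadherin) and *Cdh11* (OB-cadherin) are the main cadherins of osteoblasts, *Cdh15* (M-cadherin) is best known from skeletal muscle and its satellite cells, and *Cdh13* (T-cadherin) is held in the membrane by a lipid anchor and lacks a cytoplasmic tail. Connexins assemble into gap junction channels that pass ions and small molecules between cells. *Gja1* encodes connexin 43, the principal connexin of osteoblasts and osteocytes, *Gjc1* encodes connexin 45, which is coexpressed with it in bone, and *Gjc3* encodes connexin 29, known from myelinating glia. *Panx3* encodes a channel protein of hypertrophic chondrocytes and osteoblasts that is related to the innexins of invertebrates, and *Ncam1* encodes an immunoglobulin-family adhesion molecule.

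Promoter sequence is shown for 2 members that behaved differently on *c-Myc* induction, *Gja1*, which fell, and *Cdh15*, which was not called. The RefSeq promoter table for GRCm38.p6 held entries for *Gja1*, *Cdh15* and *Gjc3*. The other 6 members had none. For *Gja1* the 250 bases before the RefSeq start site are given (chr10:56377050-56377299, + strand), and for *Cdh15* the 30 bases from -45 to -16 (chr8:122848329-122848358, + strand), which GENCODE places in the first exon of the gene. Capitals mark matches to the motifs described after the sequences.
Gja1: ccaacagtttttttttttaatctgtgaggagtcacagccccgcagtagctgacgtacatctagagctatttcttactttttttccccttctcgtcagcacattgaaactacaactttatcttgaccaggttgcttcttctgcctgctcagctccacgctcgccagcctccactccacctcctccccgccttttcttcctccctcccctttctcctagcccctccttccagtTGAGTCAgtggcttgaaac
Cdh15: ccgccccACCACACACGTGcagtcccttgg
Motifs were searched in whole promoter windows, which are longer than the stretches shown and reach past the start site (chr8:122848124-122848423 for *Cdh15*). The E-box CACGTG, the sequence that MYC–MAX binds, was present in the *Cdh15* promoter with its first base at -32 and in 7.15% of 32851 such windows. The RUNX core TGTGGT, searched on both strands, was present in *Cdh15* on the - strand with its first base at -38, directly next to the E-box, and in 16.8% of promoters. The AP-1 sequence TGANTCA was present in *Gja1* with its first base at -19 and in 7.81% of promoters. The GLI consensus TGGGTGGTC was present in 0.253% of promoters and in none of the 3 member promoters. None of the 4 motifs was present in *Gjc3*. These are matches of letters within the promoter windows of the table and were not tested for binding.

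The gene body positions below are those of the GENCODE annotation of GRCm38, and all 9 members are protein-coding. *Cdh2* lies at chr18:16588877-16809246, *Cdh11* at chr8:102632095-102785642, *Cdh13* at chr8:118283733-119324921 and *Cdh15* at chr8:122847966-122867397. *Gja1* lies at chr10:56377330-56402513, *Gjc1* at chr11:102799579-102819700 and *Gjc3* at chr5:137953461-137963098. *Panx3* lies at chr9:37659902-37669235 and *Ncam1* at chr9:49502136-49798925. Of these, *Ncam1* alone shares exon sequence with another annotated gene, the antisense gene *Gm11149* on the opposite strand, over 417 bases or 4.81% of the *Ncam1* exons. The strand setting of the counting is not given in the sources used here, so reads in that stretch cannot be assigned to either gene.

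Total counts were 10256521 to 12648874 in juvenile libraries, 9066154 to 10823288 in adult, 13779052 to 15684412 in *c-Myc* and 12823338 to 13745901 in *c-Myc* + *R172H* libraries, and *Col1a1*, *Col1a2* and *Gm26917* together took 35.2% to 65.3% of them. The collagen part of that share differed between groups. *Col1a1* had 3875501 to 4554632 counts in juvenile and 747765 to 770967 in *c-Myc* + *R172H* libraries. *Myc* RNA averaged 45.9 CPM in juvenile libraries, 641 CPM in *c-Myc* libraries and 693 CPM in *c-Myc* + *R172H* libraries, while the point mutation in *Trp53* cannot be seen in gene counts. *Sp7* RNA was present in every library, at a mean of 237 CPM in juvenile, 176 in adult, 137 in *c-Myc* and 121 in *c-Myc* + *R172H* libraries. Because the sort relied on a Cre in the *Sp7* locus, its presence does not test the osteoblast label. The summed level of 12 chondrocyte markers, in contrast, differed between groups: 8788 to 26259 CPM in juvenile, 34457 to 125951 in adult, 352 to 558 in *c-Myc* and 167 to 171 in *c-Myc* + *R172H* libraries. CPM, counts divided by library size in units of 1e6 reads, carry TMM factors set over the 12 libraries, and errors are SD over libraries unless they are marked SE, the standard error of a log2 fold change. In bulk RNA, fewer cells of a type and less RNA per cell cannot be told apart. The p-values measure the spread between these libraries, which were separate pools in the controls, while the number of mice behind each induced library is not stated.

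Levels of different genes were compared per kilobase of exon. In juvenile libraries connexin 43 led, with *Gja1* at 119 ± 16.4 CPM per kb (SD, n = 4), followed by *Cdh11* at 55.4 ± 5.12, *Panx3* at 48.4 ± 15.0 and *Cdh2* at 44.1 ± 3.68. *Cdh15* averaged 22.4 ± 7.76 CPM per kb and *Ncam1* 13.1 ± 2.87. The 3 remaining members were far lower, at 0.841 ± 0.0972 for *Gjc1*, 0.730 ± 0.184 for *Gjc3* and 0.0942 ± 0.0780 for *Cdh13*. The range of *Panx3* overlapped those of *Cdh11* and *Cdh2*, *Cdh15* overlapped *Ncam1*, and *Gjc1* overlapped *Gjc3*, so these neighbours were not separated by the spread between libraries. *Cdh11* and *Cdh2* did not overlap each other, nor did *Gja1* overlap any other member. The order of means was the same in adult libraries down to *Ncam1*, with *Cdh11* at 50.3 ± 12.5 and *Panx3* at 48.5 ± 16.7 CPM per kb. *Gjc3* then averaged more than *Gjc1* (1.43 ± 0.784 against 0.650 ± 0.137), with ranges that overlapped.

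The order was different on *c-Myc* induction. *Gja1* was still first at 40.7 ± 2.32 CPM per kb (SD, n = 2), now followed by *Panx3* at 34.4 ± 4.36 and by *Cdh15* at 17.5 ± 0.110. *Cdh2*, at 14.9 ± 0.717, and *Cdh11*, at 10.3 ± 1.01, lay below *Cdh15* in both libraries. *Cdh11* thus went from second to the fifth place. In *c-Myc* + *R172H* libraries *Panx3* (34.5 ± 1.07) averaged more than *Gja1* (31.2 ± 3.52), and the lowest *Panx3* library, at 33.8, was just above the highest *Gja1* library, at 33.6.

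**Figure D1:**
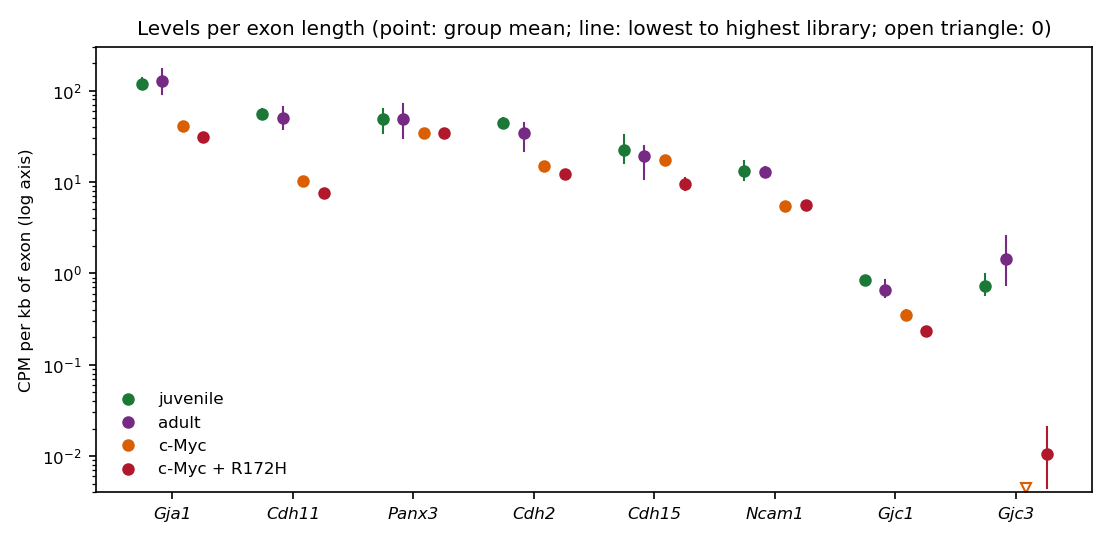
Mean level of 8 members in CPM per kb of exon on a log axis, by group, with lines from the lowest to the highest library and an open triangle for a mean of 0. *Gja1* leads in the controls at 119 and 126, the points for *Panx3* stay between 34.4 and 48.5, and *Cdh11* has the widest gap between controls and induced groups among the 6 abundant members.

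The first comparison asked whether these genes differ between the juvenile and the adult metaphysis. None was called: the 8 members that passed the expression filter had a median log2 fold change, juvenile over adult, of 0.070, and 0 of 8 had groups that did not overlap. Of all 11345 genes tested with edgeR's quasi-likelihood test and Benjamini-Hochberg adjustment, 1.89% were called higher and 3.23% lower in juvenile libraries, and 12.9% had groups that did not overlap. At an unadjusted p under 0.05, 1 of 8 members passed, against 19.7% of all genes tested, and DESeq2 also called 0. With calls this rare in the whole table, 0 of 8 is not a result about these genes.

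Among the cadherins, *Cdh2* was at 342, 337, 400.3 and 345 CPM in juvenile replicates 1 to 4 and at 177, 358, 355 and 228 CPM in adult replicates 1 to 4. Adult replicates 2 and 3 lay within the juvenile range, while replicates 1 and 4 lay below it, and the log2 fold change was 0.34 (SE 0.19, adjusted p = 0.347 by edgeR's quasi-likelihood test). *Cdh11* was at 478, 476, 459 and 561 CPM in juvenile and at 337, 586, 486 and 382 CPM in adult libraries. Here too adult replicates 1 and 4 were the low ones and the groups overlapped, with a log2 fold change of 0.13 (SE 0.16). *Cdh15* was at 52.4, 53.7, 106 and 79.4 CPM in juvenile and at 35.3, 77.7, 79.5 and 57.1 CPM in adult libraries. Juvenile replicate 3 alone lay above the adult range, and the log2 fold change of *Cdh15* was 0.21 (SE 0.31). *Cdh13* had 5, 7, 5 and 19 counts in juvenile and 2, 6, 3 and 5 counts in adult libraries, too few to pass the filter, and it was not tested.

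Among the channel proteins, *Gja1* was at 1098, 1056, 1316 and 1405 CPM in juvenile and at 935, 1752, 1337 and 1138 CPM in adult libraries. The adult values spanned the juvenile ones on both sides, and the log2 fold change was -0.089 (SE 0.17). *Gjc1* was at 4.66, 3.82, 3.75 and 4.595 CPM in juvenile and at 2.73, 3.05, 2.97 and 4.26 CPM in adult libraries. Only adult replicate 4 reached the juvenile range, and with 23 to 51 counts per control library the log2 fold change of 0.36 had an SE of 0.38. *Gjc3* was at 3.38, 4.23, 2.50 and 2.61 CPM in juvenile and at 11.1, 3.27, 4.91 and 5.54 CPM in adult libraries. Adult replicate 2 lay within the juvenile range and the other 3 above it, and the log2 fold change of -0.97 (SE 0.41) was the largest among the members, with an adjusted p of 0.191 in edgeR's quasi-likelihood test. Without adult replicate 1 it was -0.52. *Panx3* was at 214, 207, 126 and 118 CPM in juvenile and at 244, 105, 159 and 158 CPM in adult libraries. Its group means were nearly equal (166 CPM in both) while single libraries differed by more than the groups did.

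The adhesion molecule *Ncam1* was at 148, 116, 91.8 and 99.8 CPM in juvenile and at 112, 125, 97.8 and 116 CPM in adult libraries. Its log2 fold change was 0.0062 (SE 0.14).

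**Figure D2:**
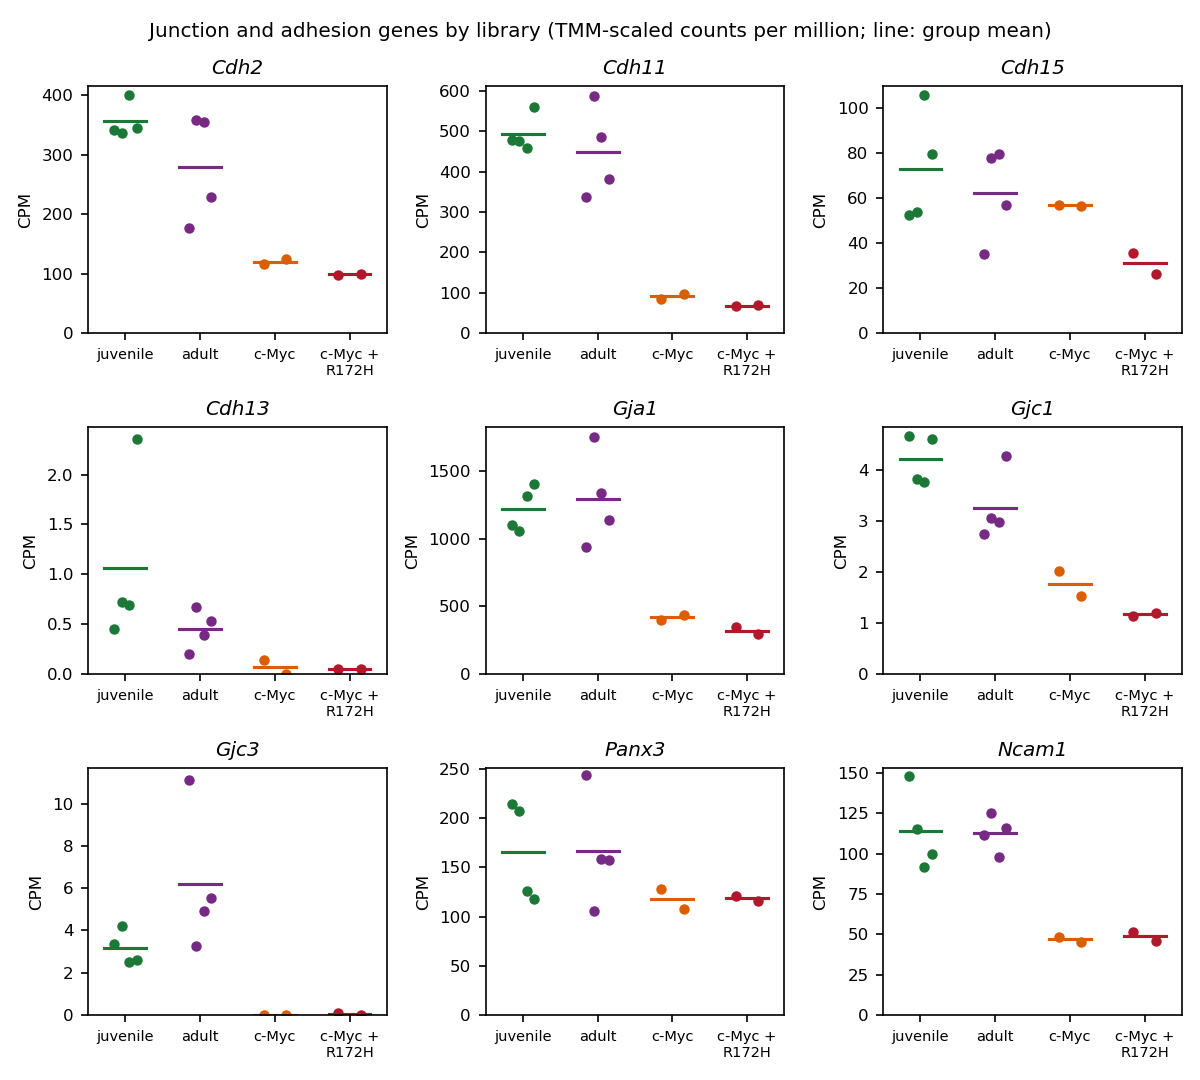
Level of each member in CPM (linear axis from 0) in every library, by group, with a line at the group mean. Juvenile and adult points overlap in every panel, whereas the induced points of *Cdh2*, *Cdh11*, *Cdh13*, *Gja1*, *Gjc1*, *Gjc3* and *Ncam1* lie below all juvenile points and those of *Cdh15* and *Panx3* in *c-Myc* libraries do not.

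The adult libraries differed from each other in their cartilage RNA, and several members moved with it. The chondrocyte markers summed to 125951 CPM in adult replicate 1, 74765 in replicate 4, 55430 in replicate 3 and 34457 in replicate 2. *Gjc3* followed that order exactly, from 11.1 CPM in replicate 1 to 3.27 CPM in replicate 2. *Panx3* was likewise highest in replicate 1 (244 CPM) and lowest in replicate 2 (105 CPM), with the other two almost equal. *Gja1*, *Cdh2* and *Cdh11* ran in the opposite order, and all 3 were lowest in replicate 1 and highest in replicate 2. The osteoblast markers summed to 353257 CPM in adult replicate 1, 617375 in replicate 2, 561813 in replicate 3 and 341900 in replicate 4. Most of that sum was *Col1a1*, at 233936, 406551, 372759 and 223969 CPM in adult replicates 1 to 4. In juvenile libraries, with 21152, 26259, 24776 and 8788 CPM of chondrocyte markers in replicates 1 to 4, no member named here kept this order. *Panx3* was again lowest in the library with the least cartilage RNA, replicate 4 at 118 CPM, but replicate 3, with 126 CPM, lay between replicates 1 and 2 in cartilage RNA. The part of cartilage RNA in these values was not tested.

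**Figure D3:**
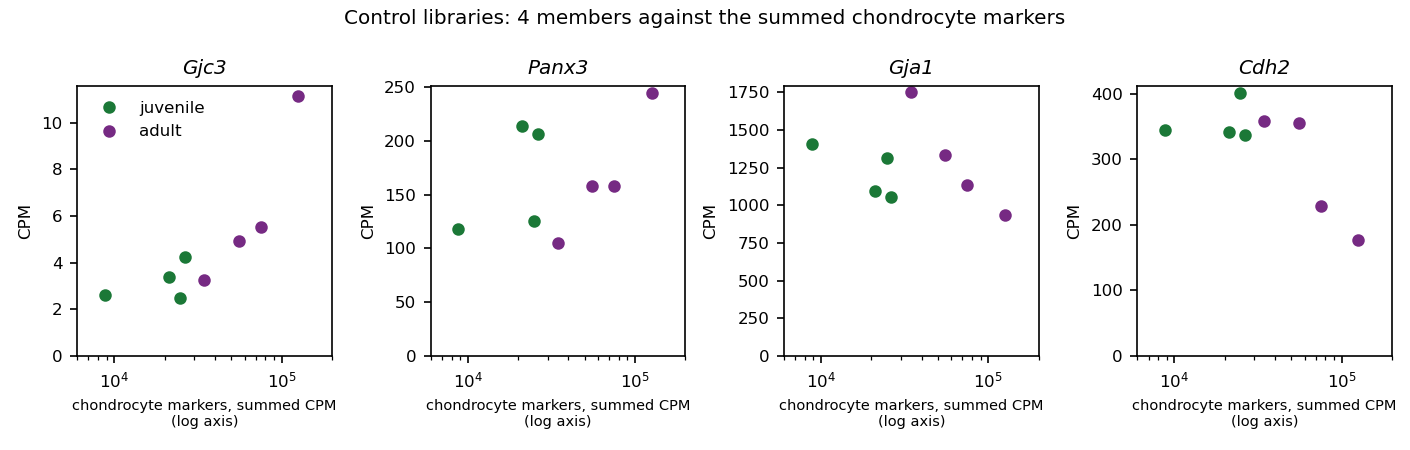
Level in CPM of *Gjc3*, *Panx3*, *Gja1* and *Cdh2* (linear axes from 0) against the summed CPM of 12 chondrocyte markers (log axis) in the 8 control libraries. In adult libraries *Gjc3* rises from 3.27 to 11.1 CPM from the lowest to the highest marker sum, whereas *Gja1* goes from 1752 to 935 CPM.

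The second comparison set *c-Myc* against juvenile libraries, which also differ in sex, age, antibiotic, tamoxifen schedule and trimming. Here 6 of the 8 members tested fell. Both main osteoblast cadherins, all 3 connexins and *Ncam1* fell, whereas *Cdh15* and *Panx3* were not called and *Cdh13* was too low to test. A gene was called when its adjusted p was under 0.05 and its log2 fold change was 1 or more in either direction. Of 8 members tested, 0 were called higher and 6 lower, against 18.4% higher and 16% lower among 12588 genes, and the median log2 fold change of the members was -1.43 (*c-Myc* over juvenile) against 0.037 for all genes. This contrast is a description, because the members were chosen with earlier results of these data known. In 6 of 8 members the groups did not overlap, which was also the case for 64.5% of all genes. Markers of the osteoblast itself were called lower as well, 6 of 8, together with 3 of 3 tested osteocyte markers, 2 of 6 marrow stromal markers and 12 of 12 chondrocyte markers. The osteoblast markers summed to 567275 to 836924 CPM in juvenile and 99335 to 131856 CPM in *c-Myc* libraries, and none was at 0. That sum is mostly collagen RNA, with *Col1a1* at a mean of 485198 CPM in juvenile and 76660 CPM in *c-Myc* libraries. *Sp7* averaged 237 and 137 CPM in these groups and *Runx2* 227 and 141 CPM. The log2 fold change of *Sp7*, -0.81 (SE 0.10), was short of the minimum fold. The osteocyte markers summed to 364 to 725 CPM in juvenile and to 139.8 to 163 CPM in *c-Myc* libraries, with *Fgf23* at 0 throughout. Other lists went the other way. Of the endothelial markers 1 of 2 tested was called higher, and of the haematopoietic and erythroid markers 1 of 3, with 0 lower. The endothelial sum was 0 to 2.56 CPM in juvenile and 10.8 to 13.1 CPM in *c-Myc* libraries. Most of the *c-Myc* value was *Egfl7* and *Vwf*, at means of 6.68 and 4.46 CPM. *Pecam1*, *Cdh5*, *Kdr*, *Tek*, *Emcn* and *Tie1* each averaged at most 0.416 CPM there. The haematopoietic and erythroid sum was 1.37 to 5.701 CPM in juvenile and 10.73 to 12.01 CPM in *c-Myc* libraries. Most of that *c-Myc* value was *Lyz2* and *Cd68*, at means of 6.16 and 3.77 CPM, while *Ptprc* averaged 0.312 CPM. The part of these markers in the members' results was not tested.

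*Cdh11* changed most among the abundant members. Its 85.0 and 97.6 CPM in the *c-Myc* libraries lay far below the juvenile minimum of 459 CPM, and it fell by 2.46 on the log2 scale (SE 0.11, adjusted p = 1.47e-08 by edgeR's quasi-likelihood test), which is 5.49-fold lower. *Cdh2* was at 116 and 124 CPM, again below every juvenile library, and was 3.01-fold lower (log2 fold change -1.59, SE 0.099, adjusted p = 8.65e-08 by the same edgeR test). *Cdh15* was at 57.0 and 56.5 CPM, between the juvenile values of 53.7 and 79.4 CPM. Its log2 fold change of -0.37 (SE 0.24) had an adjusted p of 0.211 in edgeR's quasi-likelihood test, and it turned to 0.49 when libraries were scaled by their totals alone. *Cdh13* had 3 and 0 counts in the *c-Myc* libraries against 5 to 19 in the juvenile ones. DESeq2, which was run without the expression filter, called it lower (log2 fold change -3.90, SE 1.39, adjusted p = 0.0122), but edgeR without the filter did not (adjusted p = 0.0690).

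The defining genes of skeletal muscle and its satellite cells, *Pax7*, *Myf5*, *Myod1*, *Myog* and *Myh4*, had 0 counts in all 12 libraries. The 10 muscle markers together summed to 0 to 4.40 CPM, while *Cdh15* itself was at 26.2 to 106 CPM.

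The connexins fell together. *Gja1* was at 401 and 435 CPM in the *c-Myc* libraries, both below the juvenile minimum of 1056 CPM, and was 2.96-fold lower (log2 fold change -1.56, SE 0.13, adjusted p = 6.06e-07 by edgeR's quasi-likelihood test). *Gjc1* was at 2.01 and 1.53 CPM against a juvenile minimum of 3.75 CPM and was 2.41-fold lower (log2 fold change -1.27, SE 0.42, adjusted p = 0.0236 by edgeR). This call rests on both *c-Myc* libraries, since without replicate 1 its adjusted p in edgeR's quasi-likelihood test was 0.103 and without replicate 2 it was 0.197, and with no expression filter it was 0.0642. *Gjc3* had 0 counts in both *c-Myc* libraries, where 18 to 41 counts were seen per juvenile library. Measured against 3 counts in the shallower *c-Myc* library, which correspond to 0.170 CPM, it was at least 18.7-fold lower (adjusted p = 0.000215 by edgeR's quasi-likelihood test). All 12 chondrocyte markers were also called lower in this comparison, and their sum went from at least 8788 CPM to at most 558 CPM. The 10 Schwann cell markers summed to 40.9 to 62.9 CPM in juvenile, 28.9 to 95.9 in adult, 37.3 to 40.5 in *c-Myc* and 50.7 to 55.7 in *c-Myc* + *R172H* libraries. Of these, 1 of 4 tested was called lower on *c-Myc* induction, *Foxd3* was at 0 in both groups, and *Sox10* averaged 0.865 CPM in juvenile and 0.108 CPM in *c-Myc* libraries. The part of either cell type in the *Gjc3* result was not tested.

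*Panx3* was at 129 and 107 CPM, and the higher of these 2 libraries lay inside the juvenile range of 118 to 214 CPM. Its log2 fold change of -0.52 (SE 0.23) had an adjusted p of 0.0724 in edgeR's quasi-likelihood test, and it turned to 0.29 with library totals. Other fits gave *Panx3* an adjusted p under 0.05 with a fold short of the minimum. These were edgeR's quasi-likelihood test with the replicate block (log2 fold change -0.87, adjusted p = 3.08e-07), with no filter (-0.46, adjusted p = 0.000897), with upper-quartile factors (-0.59, adjusted p = 0.0371) and without juvenile replicate 3 or 4 (adjusted p = 0.0264 and 0.0124), and DESeq2 (adjusted p = 0.0340). *Panx3* was called in none of them. *Ncam1* was at 48.7 and 45.5 CPM, below every juvenile library, and was 2.46-fold lower (log2 fold change -1.30, SE 0.18, adjusted p = 5.03e-05 by edgeR's quasi-likelihood test).

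The scaling sets how many of these genes are called. Under library totals the median log2 fold change of all genes moved to 0.87, and 2 of 8 members were called lower, *Cdh11* at -1.62 and *Gjc3*. *Cdh2* (-0.75) and *Gja1* (-0.72) still passed an adjusted p of 0.05 in edgeR's quasi-likelihood test but not the minimum fold, and *Gjc1* (-0.43) and *Ncam1* (-0.48) did not pass.

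**Figure D4:**
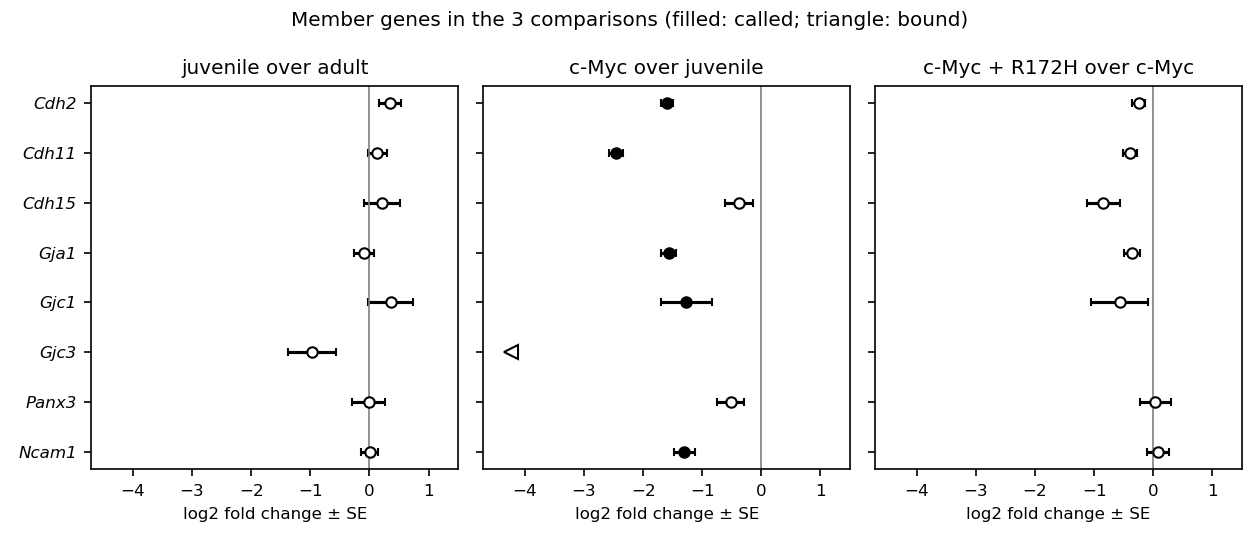
Log2 fold change with its SE for 8 members in the 3 comparisons, with filled points for called genes and a triangle at the bound for *Gjc3*, which is called in the middle panel and for which no fold is drawn in the right panel. The 5 filled points of the middle panel lie between -2.46 and -1.27, and the open points for *Cdh15* and *Panx3* lie nearer to 0.

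Ratios of raw counts within a library do not depend on the scaling between libraries. *Cdh11* reads per *Cdh2* read were 1.40, 1.41, 1.15 and 1.62 in juvenile and 1.90, 1.64, 1.37 and 1.67 in adult replicates 1 to 4. They were 0.733 and 0.787 in *c-Myc* and 0.685 and 0.687 in *c-Myc* + *R172H* libraries, so *Cdh11* outnumbered *Cdh2* in all 8 controls and in none of the 4 induced libraries. *Cdh15* took 6.005%, 6.20%, 10.96% and 8.05% of the reads of *Cdh2*, *Cdh11* and *Cdh15* in juvenile libraries and 6.43% to 8.64% in adult libraries. Its share was 22.1% and 20.3% in *c-Myc* and 17.8% and 13.5% in *c-Myc* + *R172H* libraries, all above the highest control. *Cdh15* itself was not higher, at a mean of 56.8 CPM in *c-Myc* and 72.8 CPM in juvenile libraries, while *Cdh2* and *Cdh11* were lower. *Panx3* had 19.5, 19.6, 9.56 and 8.397 reads per 100 *Gja1* reads in juvenile libraries and 26.1, 6.01, 11.9 and 13.9 in adult replicates 1 to 4. It had 32.1 and 24.7 in *c-Myc* and 35.1 and 39.4 in *c-Myc* + *R172H* libraries, and adult replicate 1, with the most cartilage RNA, overlapped the *c-Myc* values. With 2 libraries against 4, a two-sided exact permutation test cannot go below p = 0.133, which each of the 3 ratios reached between *c-Myc* and juvenile libraries (Benjamini-Hochberg adjustment over the 3 leaves 0.133). The ratios were chosen with earlier results of these data known, so reaching this value adds no separate support. Between juvenile and adult libraries the exact permutation p was 0.171 for *Cdh11* over *Cdh2* and 1 for the other 2 ratios, where the smallest possible value is 0.0286.

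**Figure D5:**
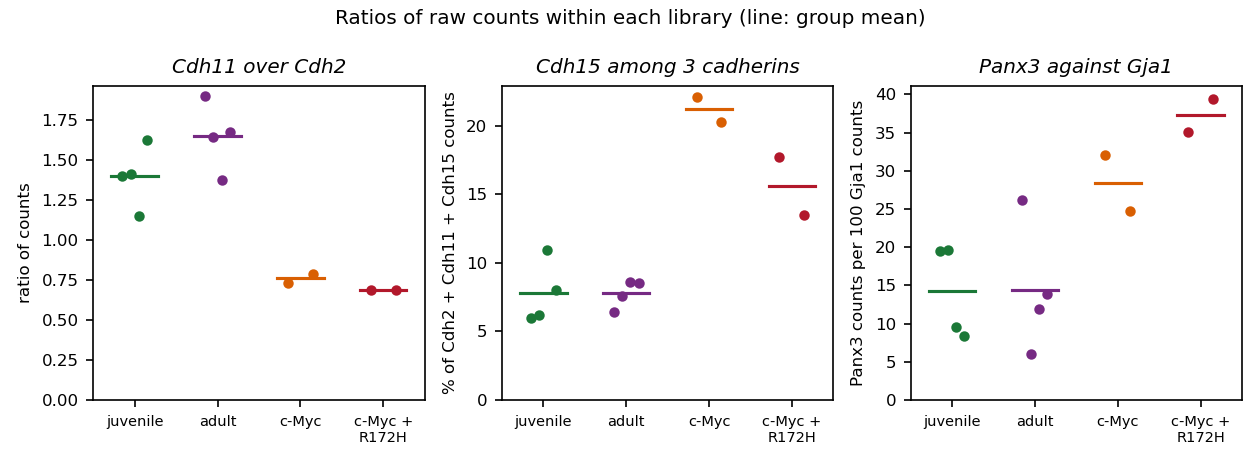
Ratios of raw counts in each library (linear axes from 0), by group, with a line at the group mean: *Cdh11* over *Cdh2*, *Cdh15* as a percentage of the counts of 3 cadherins, and *Panx3* counts per 100 *Gja1* counts. The 4 induced libraries lie below all controls in the first panel (0.685 to 0.787) and above them in the second (13.5% to 22.1%).

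The third comparison asked what mutant p53 adds to *c-Myc*, and it shares the *c-Myc* libraries with the second. No member was called at an adjusted p under 0.05, in a table where 0.00794% of 12588 genes were called higher and 0.461% lower in *c-Myc* + *R172H* libraries. The median log2 fold change of the 8 members was -0.30 (*c-Myc* + *R172H* over *c-Myc*) against -0.0028 for all genes. Groups of 2 did not overlap in 5 of 8 members, as in 45.01% of all genes. At an unadjusted p under 0.05, 4 of 8 members passed, all lower, whereas 4.68% of all 12588 genes passed and 4.06% passed and were lower. DESeq2 called 0 members.

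The 4 members past an unadjusted p of 0.05 were 3 cadherins and *Gja1*. *Cdh15* was at 35.8 and 26.2 CPM, both below the *c-Myc* values of 57.0 and 56.5 CPM, and its log2 fold change was -0.84 (SE 0.27, with an adjusted p of 0.439 by edgeR's quasi-likelihood test). *Cdh11* was at 67.3 and 68.6 CPM (log2 fold change -0.40, SE 0.12, adjusted p = 0.307 by the same edgeR test) and *Cdh2* at 98.3 and 99.8 CPM (log2 fold change -0.25, SE 0.11). *Gja1* was at 345 and 294 CPM, with a log2 fold change of -0.36 (SE 0.13). These 4 genes did not overlap between the groups. When these 2 groups were fitted without the juvenile libraries, 3 of 8 members were called lower by edgeR's quasi-likelihood test: *Cdh15* (adjusted p = 6.59e-05), *Gja1* (adjusted p = 0.00187) and *Cdh11* (adjusted p = 0.00315). That fit takes its spread from 4 libraries and called 189 genes higher and 440 lower.

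*Gjc1* was at 1.14 and 1.19 CPM, or 25 and 24 counts, with a log2 fold change of -0.57 (SE 0.48). *Gjc3* had 2 and 0 counts, which is under the detection floor of 3 counts in either group, and *Cdh13* had 1 count in each library. *Panx3* was at 121 and 116 CPM and *Ncam1* at 51.7 and 45.9 CPM, both overlapping the *c-Myc* libraries, with log2 fold changes of 0.036 (SE 0.26) and 0.080 (SE 0.19).

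The wider families were described from 5 lists of related genes, of which 82 were in the table and 32 passed the filter in each comparison. In the age and *R172H* comparisons 0 of 32 were called. On *c-Myc* induction 3 were called higher and 8 lower. Their log2 fold changes had a median of -0.30, beside 18.4% of all genes higher, 16% lower and a median of 0.037. The balance depends on the scaling, since library totals gave 11 higher and 5 lower among the same 32 genes, with a median of 0.54. These counts under other scalings were added after the data were seen. Among the other cadherins 2 of 19 were abundant enough to test, and *Cdh23*, a long cadherin best known from hair cell tip links, fell from a mean of 5.28 to 0.375 CPM (log2 fold change -3.84, SE 0.75, adjusted p = 0.000864 by edgeR's quasi-likelihood test). Of the catenins and other cytoplasmic partners of cadherins, 0 of 9 tested were called, with a median log2 fold change of -0.16. *Ctnnb1*, which encodes β-catenin, was at 768 CPM in *c-Myc* against 873 CPM in juvenile libraries (log2 fold change -0.21, SE 0.10). Adjusted p was under 0.05 for 3 genes of this list, all short of the minimum fold. *Ctnna1*, which encodes α-catenin, had a log2 fold change of -0.65 (SE 0.11) with an adjusted p of 0.000237 in edgeR's quasi-likelihood test. *Afdn*, which encodes the actin-binding junction protein afadin, was at -0.90 (SE 0.16, adjusted p = 0.000369 by the same edgeR test), and *Pkp4*, a gene of the p120 catenin family, lay on the other side of 0 at 0.73 (SE 0.14, adjusted p = 0.000742 by edgeR). Under library totals 3 of 9 were called higher and 0 lower, with a list median of 0.67.

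Of 17 other connexins 1 was abundant enough to test in this comparison. *Gja3*, connexin 46 of the lens, had 35 and 40 counts in *c-Myc* libraries and 22 and 21 in *c-Myc* + *R172H* libraries, whereas 7 of 8 control libraries had 0 and juvenile replicate 3 had 5. It was called higher with an adjusted p of 0.0153 in edgeR's quasi-likelihood test. Among 7 tested pannexins and partners of connexin 43, 2 rose and 2 fell, beside 18.4% of all genes called higher and 16% lower. Library totals gave 3 higher and 1 lower of these 7. *Ezr*, which encodes ezrin, a linker of membrane proteins to actin, rose from a mean of 12.5 to 36.4 CPM (log2 fold change 1.52, SE 0.19, adjusted p = 2.81e-05 by edgeR's quasi-likelihood test). One of those that fell was *Cav1*, the caveolin gene, which had 1 count in each *c-Myc* library and 2, 15, 24 and 20 counts in juvenile replicates 1 to 4.

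Of 13 tested immunoglobulin-family adhesion genes 5 were called lower and 0 higher, with a median log2 fold change of -0.73, beside 16% lower and a median of 0.037 among all genes. Library totals gave 3 lower and 3 higher of these 13, with a median of 0.10. *St8sia2*, which encodes an enzyme that adds polysialic acid to NCAM, had 0 and 4 counts in *c-Myc* libraries against 10 to 33 in juvenile ones (adjusted p = 0.00641 by edgeR's quasi-likelihood test). *Ncam1* and this modifying enzyme were thus both called lower.

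The genes whose log2 CPM tracked each member most closely over the 12 libraries were ranked by Pearson's r among 13004 genes. These correlations are descriptions over libraries that share groups, depth and scaling. *Creb3l1* was nearest to *Cdh2* (r = 0.994), *C1qtnf6* to *Cdh11* (r = 0.996), *Ccpg1* and then *Dlx5* to *Gja1* (r = 0.993 and 0.990), and *Colec12* to *Ncam1* (r = 0.983). *Ufc1* was nearest to *Gjc1* (r = 0.977) and *Enpp2* to *Gjc3* (r = 0.990). The nearest neighbours of the members that were not called on *c-Myc* induction were less close for *Panx3* (*Grb10*, r = 0.915), and for *Cdh15* the first was *Gbp3* (r = 0.958) and the second *Pacsin1* (r = 0.891). Among the members themselves *Cdh11* and *Gja1* were the closest pair (r = 0.986), followed by *Cdh2* with *Cdh11* (r = 0.961), whereas *Panx3* with *Cdh15* had r = -0.21.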

How the data were processed

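Per the authors' methods, the 86-bp single-end reads were adapter-trimmed (cutadapt 4.6), mapped to mm10 (STAR 2.7.11a) and tallied per gene from unique alignments (HTSeq-count 2.0.5). The table was deposited as raw counts with no scaling. Alignment and counting used different GENCODE releases. Libraries were grouped by their titles. Replicates of every group differed by more than sampling noise (chi-square per degree of freedom 5.45 to 136), so none was merged.

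The counts were tested in R 4.3.3 with edgeR 4.0.16 (TMM factors, filterByExpr, robust quasi-likelihood fit, Benjamini-Hochberg adjustment over all tested genes). The age fit used 8 libraries. The *c-Myc* and *R172H* comparisons shared a fit of 8 libraries, juvenile, *c-Myc* and *c-Myc* + *R172H*. The SE approximates to the size of the log2 fold change divided by the root of F. DESeq2 1.42.0 was an alternative, beside other scalings, filters and sets of libraries, a replicate block and each library left out. Exact permutation tests used scipy 1.17.1. Exon lengths and positions came from GENCODE for GRCm38, and promoters from RefSeq. The detection floor was 3 counts, which covers counting error only. The procedure was tested on simulated data. Members, gene lists, tests and named genes were chosen with earlier results of these data known. Named beside the members were list genes called with the largest changes, groups that did not overlap and a mean of at least 10 counts, and the genes most correlated with a member. *Ctnnb1*, *Ctnna1*, *Afdn* and *Pkp4* were named after their values were seen.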

Additional observations from a re-analysis of the deposited data

Results flagged for a closer look

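In a check of 18 sets of 4 control libraries for a library far from the other 3, *Cdh2* in juvenile replicate 3 stood apart at 400.3 CPM, above 337 to 345 CPM in the others. *Cdh13* in juvenile replicate 4 stood apart at 2.36 CPM, or 19 counts against 5 to 7. Chance flags about 1 in 20 such sets. Without that library the *Cdh2* calls were unchanged, and *Cdh13* was not tested with or without it.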

How the results depend on the processing

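In the age comparison 0 members were called under all 17 alternatives. In the *c-Myc* comparison library totals gave 2 calls in place of 6, no filter 5 (*Gjc1* lost), at least 10 counts in every library 5 (*Gjc3* not tested) and DESeq2 7 (*Cdh13* added), and leaving out a library gave 5 to 6, *Gjc1* being lost without either *c-Myc* library. In the *R172H* comparison 1 member was called with no filter, 3 in a fit of the 2 groups alone and 3 with the replicate block, and 0 without any 1 library. The cause of these differences was not tested. Library totals also turned the log2 fold change of *Cdh11* (-0.099), *Cdh15* (-0.047) and *Ncam1* (-0.22) with age and of *Cdh15* (0.49) and *Panx3* (0.29) with *c-Myc*, and moved the share of calls that were higher from 36.8% to 6.26% with age and from 53.6% to 88.2% with *c-Myc*. *Ncam1* with age was -0.0081 with at least 10 counts in every library and -0.012 with the replicate block, and *Cdh15* with *c-Myc* was 0.066 with the block. Leaving out libraries gave ranges across 0 with age for *Cdh15* (-0.020 to 0.35), *Gja1* (-0.21 to 0.099), *Panx3* (-0.17 to 0.24) and *Ncam1* (-0.14 to 0.098), and with *R172H* for *Panx3* (-0.11 to 0.14) and *Ncam1* (-0.029 to 0.13). For *Gjc3* with *R172H*, at or under the floor, it gave 0 to 3.47. Over all genes the *R172H* calls were 1 higher and 58 lower, 14 and 208 with no filter, 189 and 440 in the 2 groups alone, 30 and 296 with the block, and 6 and 176 in DESeq2. Whether equal replicate numbers mark paired samples was not settled (correlation of deviations -0.052 to 0.14). Deviations of 2 libraries from their mean mirror each other, so *c-Myc* and *c-Myc* + *R172H* libraries gave a single value, 0.14. The library names number the adult replicates differently from the titles, and only the titles were used. Depth limits *Cdh13*, *Gjc1* and *Gjc3*, which had 0 to 110 counts per library.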
